A study of Mus musculus with 12 samples.

Results

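Axon guidance ligands and receptors were first described as cues that steer growing nerve fibres, and epithelial and tumour cells use the same proteins to sense contact, adhesion and position. The genes were chosen by symbol in GENCODE M21, as protein-coding genes of the semaphorins (Sema), plexins (Plxn), Eph receptors (Epha, Ephb), ephrins (Efna, Efnb), netrins (Ntn), UNC5 receptors (Unc5), Slits and Robos. Of 66 such genes, 50 were among the 18278 genes in the count files, 29 of them ligands and 21 receptors. All 50 passed the count filter, which also used the groups in which a gene was high. The genes comprised 17 of 20 semaphorins, 9 of 9 plexins, 5 of 5 ephrin-A and 3 of 3 ephrin-B ligands, and 4 of 9 EphA and 4 of 5 EphB receptors. The netrins, UNC5 receptors, Slits and Robos each had 2 measured genes. The other 16 genes (Sema3d, Sema3g, Sema5b, Epha3, Epha5, Epha6, Epha7, Epha10, Ephb1, Ntn3, Ntn5, Unc5a, Unc5d, Slit3, Robo3 and Robo4) were not analysed here.

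RNA was sequenced from tumourspheres, clusters that mammary cancer cells form in ultra-low attachment plates, after 6 days at a seeding density of 10000 cells per mL with 20 ng per mL of EGF and of basic FGF. LM1 and LM9 are mouse lines grown out of lung metastases. Both descend from HR1, a line from a mammary tumour of a mouse with a mutant PIK3CA transgene under the CAG promoter, after mutagenesis with a doxycycline-inducible piggyBac transposon, so all 4 groups share the transgene and the transposon background. LM1 Nfib KO and LM9 Nfib KO are pools of single-cell clones with Nfib, which encodes a transcription factor of the NFI family, disrupted by CRISPR-Cas9, so each group stands for 1 pool of clones. Each group had 3 libraries. LM1 and LM9 are called parental here, and the libraries with an Nfib KO label are called knockout-labelled.

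In the class 3 semaphorin system a secreted ligand binds a neuropilin co-receptor and signals through a plexin, whereas semaphorins of classes 4 to 7 are membrane-bound and bind plexins directly. Ephrins are held in the membrane by a lipid anchor (ephrin-A) or a transmembrane segment (ephrin-B), and they signal in both directions when they meet Eph receptor tyrosine kinases on a neighbouring cell. Netrins attract through DCC and neogenin and repel through UNC5 receptors, and Slits repel through Robos. In the mammary gland, EphA2 takes part in branching, netrin-1 with neogenin holds the cap cell layer of the end bud in place, and SLIT with ROBO1 restrains branching and proliferation of basal cells.

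The targeted gene was examined first. Nfib mRNA was at 196, 217 and 241 CPM (counts relative to library size, scaled by TMM factors) in the LM1 libraries, against 239, 238 and 228 CPM in those that carry the LM1 Nfib KO label. The LM9 libraries had 210.3, 119.6 and 133 CPM, against 227, 247 and 246 CPM in those with the LM9 Nfib KO label. The log2 change was 0.11 in LM1 (limma-voom adjusted p = 0.533), and in LM9 Nfib mRNA was called higher with the knockout label (0.68, adjusted p = 0.0026, or 0.93, adjusted p = 1.14e-09, without LM9 replicate 1). The guides were designed to give a frameshift, which need not remove the mRNA, so this level cannot check the label. In voom log2 values, parental and knockout-labelled libraries correlated at 0.688 to 0.702 across genes, and the 6 knockout-labelled libraries correlated with each other at 0.993 to 0.994. Replicate 1 of LM9 correlated at 0.992 with the LM1 libraries and with LM9 replicates 2 and 3 at 0.964 to 0.966, so the LM9 counts, and the LM9 values that moved most, are also given without it. Library totals ran from 29249075 to 37162594 counts, and 3 counts, the floor used here, corresponded to 0.0730 to 0.121 CPM.

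Marker genes of cell types were examined, and luminal epithelial markers were abundant in the parental libraries only. The summed level of 8 luminal epithelial markers was 791 to 1615 CPM in the parental libraries and 0.936 to 1.14 CPM in the knockout-labelled libraries, and all 7 that were tested fell in both lines, beside 33.5% of all genes. Cldn3 had no count in any knockout-labelled library, and Cdh1 and Cldn4 had at most 3 counts in each. The sum of 8 mesenchymal markers was 3251 to 5717 CPM in parental and 6478 to 6732 CPM in knockout-labelled libraries, and 6 of 8 rose in both lines, beside 39.6% of all genes. Mean Col1a1 went from 6.10 CPM in LM1 to 958 CPM with the knockout label, and from 3.25 to 899 CPM in the LM9 pair, where LM9 replicate 1 was at 6.07 CPM and replicates 2 and 3 at 1.89 and 1.77 CPM (log2 8.31 with and 8.93 without replicate 1). Dcn fell in LM1, from 90.7 to 11.5 CPM, and neither Dcn (limma-voom adjusted p = 0.0576) nor Vim (adjusted p = 0.328) was called in LM9 with all libraries. Without LM9 replicate 1 both were lower in LM9 Nfib KO (log2 -0.32, adjusted p = 0.00114, and -0.08, adjusted p = 0.0133), Vim having been at 0.18 with it. Neuronal markers summed to 84.7 to 125 CPM in parental and 32.8 to 36.2 CPM in knockout-labelled libraries, with 4 of 8 markers tested. The fall of this sum was that of Map2 (mean 118 to 14.4 CPM in LM1), while Tubb3 (0.0343 to 17.2 CPM), Gap43 and Syp rose in both lines. Basal myoepithelial markers summed to 0.443 to 19.1 and 6.78 to 7.63 CPM, glial markers to 0.177 to 0.905 and 0.832 to 1.31 CPM, and endothelial markers to 0.169 to 1.33 and 68.2 to 75.1 CPM, the last almost wholly Cdh5 in the knockout-labelled libraries. Of the basal markers, Krt14 (mean 0.0584 to 6.79 CPM in LM1) and Krt17 rose in both lines, while Trp63 fell in LM1 from 17.1 to 0.302 CPM. In LM9 Trp63 was at 17.9 CPM in replicate 1 and 0.0403 and 0.276 CPM in replicates 2 and 3, and was not called (adjusted p = 0.412, or 0.168 without replicate 1). Of the 6 immune markers 1 was tested, Cd68, at 450.2 to 554 and 95.7 to 104 CPM. These shifts moved with every difference between parental and knockout-labelled libraries described here, and their part in those differences was not tested. In bulk RNA, fewer cells of a type and less RNA per cell cannot be told apart.

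Most guidance genes differed between parental and knockout-labelled libraries, as did most genes in the files. In limma-voom with Benjamini-Hochberg adjustment over 18176 genes, 16 of the 50 were higher and 28 lower in LM1 Nfib KO than in LM1, against 43.1% and 38.1% of all genes. In LM9 Nfib KO against LM9, 19 were higher and 28 lower, against 44.3% and 38.0% of all genes. In both lines 16 rose and 26 fell, beside 39.6% and 33.5% of all genes, and with all libraries no gene passed the threshold with opposite signs. The knockout-labelled libraries of the lines correlated at 0.993 to 0.994, and both lines descend from HR1, so agreement between them is not separate evidence. Of the 29 ligands 9 rose and 17 fell in both lines, and of the 21 receptors 7 rose and 9 fell. In 17 genes all 6 knockout-labelled libraries lay above all 6 parental ones and in 27 below them, beside 40.6% and 34.1% of all genes. Without LM9 replicate 1, again 16 genes rose and 26 fell in both lines, beside 40.7% and 34.9% of all genes. Sema6b then replaced Epha8 among the genes that rose, and Epha2 replaced Efnb3 among those that fell. Efnb2 and Ephb4 then passed the threshold with opposite signs, lower in LM1 Nfib KO and higher in LM9 Nfib KO. The fitted LM9 change moved by over 1.5 times in 7 of the 50 genes (Sema6b, Sema6d, Plxna4, Plxnc1, Epha8, Efnb2 and Ntn4), and it moved by less in the other 43. For Sema6b, a membrane-bound semaphorin, the log2 change in LM9 was 1.25 with and 1.85 without that library.

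The median log2 change of the 50 genes was -0.59 in LM1 and -0.55 in LM9, where the median over all genes tested was 0.08 and 0.13. The ligands had medians of -1.50 and -1.03 and the receptors medians of -0.48 and -0.48. By class, the EphA receptors had the lowest median (-4.34 in LM1, or -3.03 with genes at 0 set to their bound, and -5.00 in LM9), with 2 of 4 lower in both lines. With 4 genes, the fitted median is the midpoint of Epha2 (-0.48 and -1.67) and Epha4 (-8.21 and -8.33). No EphA gene changed by about that amount, and Epha2 was by far the most abundant of the 4. Of the semaphorins 11 of 17 fell and 5 rose in both lines (median -2.04 and -1.91), and of the ephrin-A ligands 4 of 5 fell and none rose in both lines (median -1.89 and -2.24). Both Slits rose. The netrins, UNC5 receptors and Robos each held 1 gene that rose and 1 that fell, as the plot of changes by class shows. Beside these class counts, 39.6% of all genes rose and 33.5% fell in both lines.

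**Figure D1:**
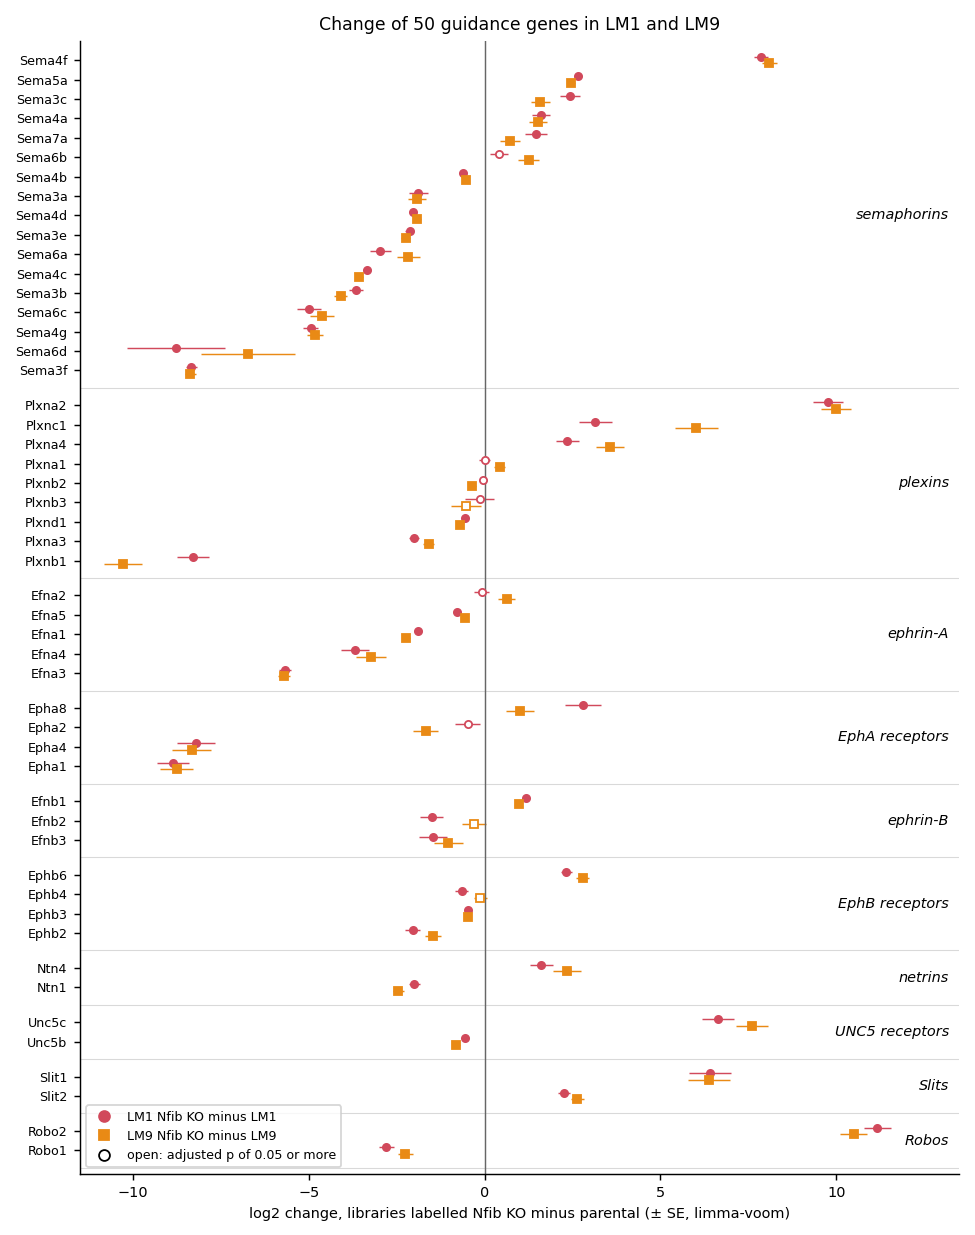
The horizontal axis gives the log2 change with its SE in the libraries labelled Nfib KO against parental libraries (limma-voom), with LM1 as circles and LM9 as squares, and open symbols mark an adjusted p of 0.05 or more. Filled symbols of both lines lie on the same side of 0 in 42 of the 50 genes, 16 to the right and 26 to the left.

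Levels were then summed by class after scaling each gene by the length of its exons, as CPM per kb. The semaphorin sum was 170.1 ± 9.76 CPM per kb in LM1 and 172 ± 2.39 in LM9, and 73.3 ± 0.556 and 72.7 ± 0.814 in LM1 Nfib KO and LM9 Nfib KO (SD, n = 3 in each group). The ephrin-A sum was 79.5 ± 3.70 and 84.4 ± 4.76 CPM per kb in the parental groups and 20.9 ± 0.0737 and 20.6 ± 0.117 in the knockout-labelled groups. In both classes every parental library lay above every knockout-labelled one. The plexin sum differed less, at 127 ± 7.36 and 136 ± 10.7 CPM per kb in LM1 and LM9 and 114 ± 2.58 and 111 ± 1.29 in LM1 Nfib KO and LM9 Nfib KO. The Slit sum was 0.0712 and 0.0617 CPM per kb in parental and 1.16 and 1.18 in knockout-labelled groups, and the Robo sum was 0.748 and 0.534 against 2.42 and 2.42. Slits and Robos were the classes whose sum was higher in every knockout-labelled library than in every parental one. The ephrin-B sum was 17.2 CPM per kb in LM1 and 17.4 in LM1 Nfib KO, with overlapping libraries, although its genes changed in opposite directions. In LM9 the ephrin-B sum was 17.6 CPM per kb in replicate 1 and 9.79 and 10.2 in replicates 2 and 3. It was 16.9 to 17.1 CPM per kb in LM9 Nfib KO, above replicates 2 and 3 and below replicate 1.

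**Figure D2:**
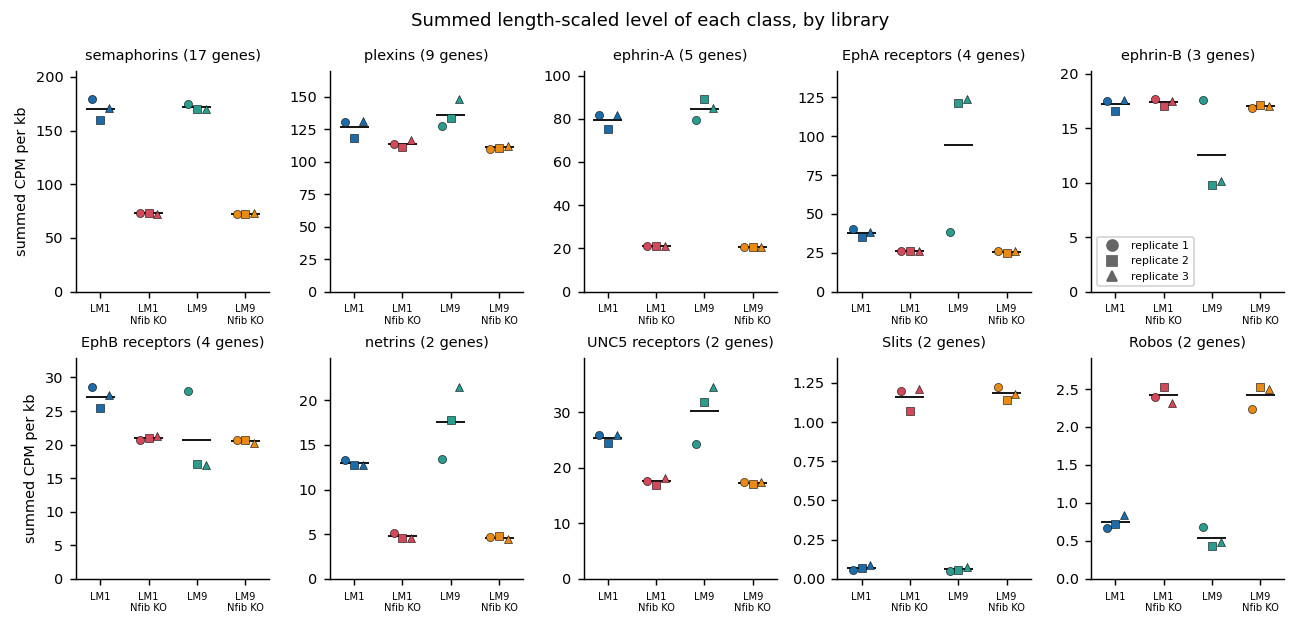
Each panel plots the summed CPM per kb of 1 class on a linear axis from 0, with a symbol per library, replicates 1 to 3 as circles, squares and triangles, and a bar at the group mean of 3 libraries. Semaphorin and ephrin-A sums are lower in all 6 knockout-labelled libraries and Slit and Robo sums higher, while in the EphA, EphB and ephrin-B panels LM9 replicate 1 lies at the level of LM1 and away from LM9 replicates 2 and 3.

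Promoter sequence is shown for 6 of the genes that the results turn on. Plxna2 and Sema4f stayed under 1 CPM in every parental library, Plxnb1 and Epha4 had at most 4 counts in any knockout-labelled library, and Efnb2 and Ephb4 encode a ligand and its receptor whose LM9 result turned on 1 library. Each line gives the 250 bases before the start of the gene in RefSeq on GRCm38.p6, 5′ to 3′ on the gene's strand. For Plxna2 and Plxnb1 the RefSeq start lies downstream of the start of the GENCODE gene, whose coordinates are given with the values. Capitals mark the GC box (GGGCGG, or CCGCCC on the other strand) and the half-site bound by NFI factors (TTGGCA, or TGCCAA on the other strand).
Plxna2, chr1:194619579-194619828, plus strand: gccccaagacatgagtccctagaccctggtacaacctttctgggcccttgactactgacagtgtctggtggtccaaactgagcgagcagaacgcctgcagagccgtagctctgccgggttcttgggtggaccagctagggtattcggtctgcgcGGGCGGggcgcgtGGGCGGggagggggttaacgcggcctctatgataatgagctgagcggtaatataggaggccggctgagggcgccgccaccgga
Sema4f, chr6:82939770-82940019, minus strand: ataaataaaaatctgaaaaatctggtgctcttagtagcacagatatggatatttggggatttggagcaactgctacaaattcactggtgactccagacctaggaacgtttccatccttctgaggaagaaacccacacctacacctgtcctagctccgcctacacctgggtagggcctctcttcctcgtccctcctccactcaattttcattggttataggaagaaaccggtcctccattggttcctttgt
Plxnb1, chr9:109095186-109095435, plus strand: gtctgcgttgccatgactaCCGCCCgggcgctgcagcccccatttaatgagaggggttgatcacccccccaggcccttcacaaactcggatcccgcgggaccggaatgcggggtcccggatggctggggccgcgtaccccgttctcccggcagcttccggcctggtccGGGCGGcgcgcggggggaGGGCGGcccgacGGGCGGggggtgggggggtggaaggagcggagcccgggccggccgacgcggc
Epha4, chr1:77515089-77515338, minus strand: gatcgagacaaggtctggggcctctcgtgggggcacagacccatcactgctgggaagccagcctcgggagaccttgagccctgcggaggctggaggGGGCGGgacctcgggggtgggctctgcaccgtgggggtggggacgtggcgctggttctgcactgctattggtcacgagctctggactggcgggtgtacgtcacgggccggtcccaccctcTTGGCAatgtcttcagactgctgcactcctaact
Efnb2, chr8:8661243-8661492, minus strand: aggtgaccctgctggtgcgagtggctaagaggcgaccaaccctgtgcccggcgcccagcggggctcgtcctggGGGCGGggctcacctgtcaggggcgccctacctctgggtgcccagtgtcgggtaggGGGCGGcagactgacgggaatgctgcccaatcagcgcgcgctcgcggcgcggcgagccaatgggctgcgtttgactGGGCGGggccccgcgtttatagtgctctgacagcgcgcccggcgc
Ephb4, chr5:137349859-137350108, plus strand: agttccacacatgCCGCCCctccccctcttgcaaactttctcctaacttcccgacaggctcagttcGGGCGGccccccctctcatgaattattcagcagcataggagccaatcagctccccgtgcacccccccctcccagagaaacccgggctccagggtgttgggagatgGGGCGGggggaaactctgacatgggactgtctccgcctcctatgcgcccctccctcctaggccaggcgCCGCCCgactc

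The window of Sema4f held no GC box and 4 CpG dinucleotides, whereas that of Plxna2 held 2 GC boxes and 18 CpGs and that of Plxnb1 held 4 GC boxes and 30 CpGs. The RefSeq table matched 42 of the 50 genes with 57 windows, of which 41 (71.9%) held a GC box on either strand. The share was 55.2% over the 14124 windows of all genes in the count files that could be matched. The NFI half-site was in 3 of the 57 windows (5.26%, against 10.1% of the 14124), those of Epha4, Ephb2 and Sema4b, all of which fell in both lines. Among the windows of genes that fell in both lines it was in 3 of 29 (10.3%), near the share over the 14124. It was in 0 of the 19 windows of genes that rose. Both strands were searched for every motif. The full NFI palindrome (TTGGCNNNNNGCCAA) was in none of the 57 and in 5 of the 14124. The hypoxia response core ACGTG was in 12 of the 57 (21.1%, against 21.1%). The median number of CpGs was 15 in both sets. The half-site and the palindrome share their first 5 letters, so their matches can overlap, and a match describes letters, not binding.

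Among the semaphorins, the dominant transcript in the parental lines was almost lost. Sema3f (ENSMUSG00000034684, chr9:107681500-107710475, minus strand) encodes a secreted ligand that repels through neuropilin-2 and plexin-A3. It was at 507, 439 and 478 CPM in LM1 and 493, 438 and 429 CPM in LM9, and at 1.21, 1.46 and 1.74 CPM in LM1 Nfib KO and 1.45, 1.29 and 1.35 CPM in LM9 Nfib KO. Every parental library was at 429 CPM or more, and no knockout-labelled library exceeded 1.74 CPM, which is still above the floor. The fall was 324-fold in LM1 (log2 -8.34, SE 0.16, limma-voom adjusted p = 6.33e-12) and 329-fold in LM9 (log2 -8.36, SE 0.16, adjusted p = 7.34e-12). Per kb it made up 53.7% of the semaphorin sum in LM1 and 50.7% in LM9, and 0.386% in LM1 Nfib KO. Sema4f (ENSMUSG00000000627, chr6:82911885-82939769, minus strand) encodes a membrane-bound semaphorin and showed the reverse, at 0.496, 0.736 and 0.831 CPM in LM1 and 161, 160.4 and 159 CPM in LM1 Nfib KO. In LM9 it was at 0.506, 0.403 and 0.827 CPM, and in LM9 Nfib KO at 155, 157 and 156 CPM. All parental libraries lay under 1 CPM and all knockout-labelled ones at 155 CPM or more. The rise was 232-fold and 273-fold (log2 7.86, SE 0.19, and 8.09, SE 0.21, limma-voom adjusted p = 2.45e-11 and 3.20e-11). Sema4f held 41.3% of the semaphorin sum per kb in LM1 Nfib KO and 40.6% in LM9 Nfib KO, followed by Sema3c at 23.4% and 24.4%.

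Other class 3 semaphorins divided in the same way. Sema3c, which acts through neuropilins and plexin-D1, was at 20.9, 23.3 and 23.9 CPM in LM1 and 125, 124 and 118 CPM in LM1 Nfib KO. In LM9, replicate 1 was at 22.1 CPM and replicates 2 and 3 at 57.6 and 60.2 CPM, and LM9 Nfib KO was at 123, 127 and 129 CPM. Knockout-labelled libraries were above all parental ones, with a log2 change of 2.43 (SE 0.29) in LM1 and 1.59 (SE 0.27) in LM9, or 1.10 without LM9 replicate 1. Sema3b, a semaphorin that binds neuropilins, fell 12.6-fold in LM1, from a mean of 62.8 to 4.97 CPM, and 17.0-fold in LM9. Sema3e, which binds plexin-D1 without a neuropilin, fell 4.36-fold in LM1 and 4.73-fold in LM9. Sema3a, the growth cone collapse factor, was low throughout, at 1.55 and 1.91 CPM in LM1 and LM9, and fell to 0.434 and 0.50 CPM.

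Of the membrane-bound semaphorins, Sema4b, Sema4c, Sema4d, Sema4g, Sema6a, Sema6c and Sema6d fell in both lines, and Sema4a, Sema5a and Sema7a rose with Sema4f. Sema4d, the ligand of plexin-B1, fell from 63.0 ± 2.63 to 15.3 ± 0.518 CPM in LM1 and from 57.2 ± 7.52 to 15.2 ± 1.26 CPM in LM9 (SD, n = 3). Sema4c, a ligand of plexin-B2, fell 10.2-fold and 11.9-fold, and an exon of it overlaps the opposite-strand gene D430040D24Rik. Sema4g fell 30.7-fold and 28.4-fold. Sema6d, which binds plexin-A1, had 2, 1 and 7 counts in the libraries of LM1 Nfib KO and 5, 3 and 3 counts in those of LM9 Nfib KO, against 32.7, 35.9 and 34.5 CPM in LM1. On summed counts this was a 399-fold fall in LM1 with a 95% exact counting interval of 217 to 833, and such intervals, like the floor of 3 counts, cover counting error only. In LM9 it was at 32.9 CPM in replicate 1 and 5.96 and 5.83 CPM in replicates 2 and 3, so the parental libraries of LM9 differed among themselves. On summed counts the fall in LM9 was 171-fold (95.3 to 344), and as a fitted log2 it was -6.72 with replicate 1 and -5.84 without it. Sema5a, a semaphorin with thrombospondin repeats, rose from 9.72 ± 0.534 to 60.9 ± 0.795 CPM in LM1 (log2 2.65, SE 0.11) and by a log2 of 2.45 (SE 0.11) in LM9. Sema7a, which is anchored by a lipid and binds plexin-C1, rose from 3.57 to 9.70 CPM in LM1 (limma-voom adjusted p = 0.000858). In LM9 its log2 change was 0.73 (adjusted p = 0.0288), and 0.23 without LM9 replicate 1 (adjusted p = 0.0422). Its LM9 call was lost in edgeR (adjusted p = 0.0811) and DESeq2 (adjusted p = 0.0810), and that of Sema4b with scaling to total counts (limma-voom adjusted p = 0.150).

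Among the plexins, Plxna2 rose from the floor of detection and Plxnb1 fell to it. Plxna2 (ENSMUSG00000026640, chr1:194618218-194816869, plus strand), a receptor of Sema6a, had 1, 1 and 2 counts in the LM1 libraries and 1, 0 and 3 counts in the LM9 libraries. In LM1 Nfib KO it was at 53.9, 50.7 and 53.0 CPM, and in LM9 Nfib KO at 53.6, 52.4 and 52.9 CPM. Parental libraries were thus at or under the floor of 3 counts, and the knockout-labelled libraries were at 50.7 CPM or more. On summed counts the ratio was 1163 in LM1 (95% exact counting interval 454 to 4269) and 1057 in LM9 (413 to 3881), and limma-voom gave adjusted p = 1.50e-09 and 1.48e-09. Plxnb1 (ENSMUSG00000053646, chr9:109095389-109119917, plus strand), the receptor of Sema4d that acts on the GTPase RhoA, was at 32.6, 28.9 and 31.3 CPM in LM1 and 32.4, 23.5 and 25.3 CPM in LM9. The LM1 Nfib KO libraries held 3, 3 and 4 counts and the LM9 Nfib KO libraries 2, 0 and 0. It was high in every parental library and close to 0 in every knockout-labelled one. The fall was 357-fold in LM1 (194 to 746) and 1616-fold in LM9 (447 to 13354), with limma-voom adjusted p = 1.05e-08 and 7.35e-09. The GC-rich windows of these genes are among the promoters printed above.

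The most abundant plexin per kb in every group was Plxnb2, a receptor of Sema4c, with 54.8% to 62.7% of the class sum. It was at 556, 506 and 547 CPM in LM1 and 522, 514 and 534 CPM in LM1 Nfib KO, which overlapped. LM9 was at 538, 681 and 758 CPM and LM9 Nfib KO at 509.7, 505 and 517 CPM. The log2 change was -0.03 in LM1 (limma-voom adjusted p = 0.765) and -0.35 in LM9 (adjusted p = 0.00684), but with scaling to total counts it was 0.19 and 0.00. Plxna1 had a log2 change of 0.01 in LM1 and 0.43 in LM9. Plxnd1, the receptor of Sema3e, fell from 180.2 ± 13.1 to 122 ± 5.30 CPM in LM1 and from 191 ± 10.2 to 117 ± 2.97 CPM in LM9. Plxna3, the receptor of Sema3f with neuropilin-2, fell 4.02-fold and 3.01-fold. Plxna4 rose 5.11-fold and 11.9-fold (18.9-fold without LM9 replicate 1) from low parental means of 1.10 and 0.582 CPM. Plxnc1, the Sema7a receptor, was at 0.213, 0.153 and 0.434 CPM in LM1 and 2.42, 2.22 and 2.17 CPM in LM1 Nfib KO. In LM9 it had 5, 0 and 0 counts, and in LM9 Nfib KO it was at 2.39, 2.82 and 2.96 CPM. Every knockout-labelled library was above every parental one. The ratio on summed counts in LM9 was 43.5 (18.5 to 135), and against replicates 2 and 3 alone the LM9 Nfib KO mean was at least 22.5-fold higher. Plxnb3, at 0.298 to 0.403 CPM in the group means, was the only gene of the 50 called in neither line.

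The neuropilins, which bind class 3 semaphorins beside the plexins, moved apart. Nrp1 was at 7.73, 9.81 and 9.0 CPM in LM1 and 46.9, 47.0 and 44.4 CPM in LM1 Nfib KO. In LM9 it was at 9.04, 0.484 and 1.02 CPM, with replicate 1 at the LM1 level, and in LM9 Nfib KO at 48.1, 44.7 and 45.2 CPM. Its log2 change was 2.38 (SE 0.37) and 4.68 (SE 0.59), the latter 5.99 (SE 0.31) without LM9 replicate 1. Nrp2, the co-receptor for Sema3f, fell from 646 ± 9.25 to 409.5 ± 3.09 CPM in LM1 and from 598 ± 60.6 to 408 ± 1.70 CPM in LM9.

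Of the 5 ephrin-A ligands, 4 fell in both lines. Efna1 (ENSMUSG00000027954, chr3:89271733-89281142, minus strand), the main ligand of EphA2, was at 81.3, 74.1 and 82.1 CPM in LM1 and 20.9, 20.8 and 22.0 CPM in LM1 Nfib KO. It was at 80.2, 114 and 107 CPM in LM9 and 20.8, 21.0 and 21.2 CPM in LM9 Nfib KO. No parental library overlapped a knockout-labelled one, and the fall was 3.72-fold and 4.72-fold (log2 -1.89, SE 0.12, and -2.24, SE 0.12, limma-voom adjusted p = 3.98e-08 and 9.07e-09). Efna3 fell further, from 39.6, 37.5 and 40.3 CPM in LM1 to 0.705, 0.941 and 0.634 CPM, and from 38.4, 33.3 and 32.5 CPM in LM9 to 0.648, 0.730 and 0.598 CPM. This was 51.3-fold and 51.8-fold. An antisense gene, Gm15998, shares exon sequence with Efna3, and whether the counts used strand is not given in the sources used here. Efna4 fell 12.9-fold and 9.39-fold, and Efna5 1.72-fold and 1.48-fold, a fall not called in LM9 with scaling to total counts (limma-voom adjusted p = 0.156). Efna2 was at 4.02 ± 0.142 and 3.80 ± 0.113 CPM in LM1 and LM1 Nfib KO (adjusted p = 0.716), and its log2 change in LM9 was 0.63 (adjusted p = 0.0249), short of the threshold in edgeR (adjusted p = 0.0510).

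Epha2 (ENSMUSG00000006445, chr4:141301240-141329384, plus strand), the EphA receptor of many epithelia, gave 94.6% to 98.6% of the EphA sum per kb. It was at 179, 154 and 171 CPM in LM1 and 121, 119 and 120.2 CPM in LM1 Nfib KO. In LM9, replicate 1 was at 168 CPM, replicates 2 and 3 were at 553 and 562 CPM, and LM9 Nfib KO was at 119, 113 and 120.1 CPM. All knockout-labelled libraries lay below all parental ones. The log2 change was -0.48 (SE 0.36) in LM1, short of the threshold (limma-voom adjusted p = 0.234), and -0.48 (SE 0.04, adjusted p = 2.24e-08) once LM9 replicate 1 no longer entered the shared spread. In LM9 it was -1.67 (adjusted p = 0.00103), or -2.24 without LM9 replicate 1. The minor receptors Epha1 and Epha4 fell to at most 1 count per library. Epha1 was at 6.52, 5.85 and 5.71 CPM in LM1 and 6.11, 9.27 and 9.01 CPM in LM9. It had no count in LM1 Nfib KO, at least 76.1-fold lower against 3 counts per library, and 0, 1 and 0 counts in LM9 Nfib KO. Epha4, which also binds ephrin-B2 and ephrin-B3, was at 3.83, 4.35 and 3.25 CPM in LM1 and 4.18, 6.49 and 7.71 CPM in LM9. It too had no count in LM1 Nfib KO, at least 48.1-fold lower, and 0, 0 and 1 counts in LM9 Nfib KO. Its promoter carries the NFI half-site printed above. Part of an Epha1 exon overlaps Zyx on the opposite strand. Epha8 was at 0.213, 0.368 and 0.145 CPM in LM1 and 1.61, 1.59 and 1.90 CPM in LM1 Nfib KO (fitted log2 2.80, SE 0.50), a ratio of 6.84 on summed counts (4.39 to 11.2). The LM9 libraries were at 0.337, 1.45 and 1.22 CPM against 1.76, 1.75 and 1.51 CPM, a change called with all libraries (log2 1.00, adjusted p = 0.0375) and not without LM9 replicate 1 (log2 0.32, adjusted p = 0.173).

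In the B system Efnb1 rose in both lines, and Efnb2 fell in LM1. Efnb1 was at 22.9, 17.7 and 20.9 CPM in LM1 and 22.2, 22.5 and 22.6 CPM in LM9, and at 46.5, 46.0 and 46.6 CPM in LM1 Nfib KO and 43.9, 44.7 and 44.5 CPM in LM9 Nfib KO. Its log2 rise was 1.19 (SE 0.08, limma-voom adjusted p = 6.63e-08) and 0.99 (SE 0.08, adjusted p = 3.58e-07). Efnb2 (ENSMUSG00000001300, chr8:8617434-8661242, minus strand), the partner of EphB4 at the boundary of arteries and veins, was at 72.9, 75.2 and 75.6 CPM in LM1 and 27.4, 25.0 and 26.4 CPM in LM1 Nfib KO. LM9 replicate 1 was at 74.0 CPM, LM9 replicates 2 and 3 at 21.2 and 23.6 CPM, and LM9 Nfib KO at 27.8, 27.4 and 27.2 CPM. The fall passed the threshold in LM1 (log2 -1.50, SE 0.33, adjusted p = 0.00126). In LM9 the log2 change was -0.30 with all libraries (adjusted p = 0.435) and 0.30 without replicate 1 (adjusted p = 0.000228). Per kb, Efnb1 made up 34.5% and Efnb2 63.3% of the ephrin-B sum in LM1, and Efnb1 made up 77.2% in LM1 Nfib KO. Efnb3 was low, at 0.674, 1.38 and 1.45 CPM in LM1 and 0.478, 0.287 and 0.449 CPM in LM1 Nfib KO. The LM9 libraries were at 1.28, 0.604 and 0.551 CPM and those of LM9 Nfib KO at 0.285, 0.462 and 0.390 CPM, and its LM9 call was lost without replicate 1 (adjusted p = 0.167).

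Of the EphB receptors, Ephb4 was the most abundant per kb in every group. It was at 84.2, 72.3 and 80.7 CPM in LM1 and 49.7, 50.2 and 51.1 CPM in LM1 Nfib KO (log2 -0.65, SE 0.18, limma-voom adjusted p = 0.00671), a call lost with scaling to total counts (adjusted p = 0.0930). LM9 replicate 1 was at 82.0 CPM, replicates 2 and 3 at 44.0 and 43.7 CPM and LM9 Nfib KO at 50.9, 49.9 and 49.3 CPM. The LM9 change was -0.12 with all libraries (adjusted p = 0.562) and 0.19 without replicate 1 (adjusted p = 0.00611). Ephb2, which sorts cells along the intestinal crypt, fell from 48.5, 45.3 and 44.1 to 10.5, 10.8 and 12.1 CPM in LM1. Its levels were 46.1, 24.5 and 22.9 CPM in LM9 and, in LM9 Nfib KO, 10.7, 10.8 and 11 CPM, below every parental library. Ephb3 fell 1.40-fold and 1.40-fold, and its LM9 call was lost with scaling to total counts (adjusted p = 0.187). Ephb6, a receptor without kinase activity, rose from 4.04, 4.17 and 3.90 CPM in LM1 to 19.7, 19.9 and 21.6 CPM, and from 4.32, 2.26 and 2.13 CPM in LM9 to 19.2, 20.0 and 19.1 CPM. That is 5.02-fold and 6.91-fold (log2 2.33, SE 0.16, and 2.79, SE 0.19).

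Among the netrins, Ntn1, the laminin-like secreted cue, was at 80.6, 76.5 and 76.7 CPM in LM1 and 79.3, 110.4 and 134 CPM in LM9. It was at 20.1, 18.7 and 19.8 CPM in LM1 Nfib KO and 19.3, 19.7 and 18.6 CPM in LM9 Nfib KO. All parental libraries lay above all knockout-labelled ones, and the fall was 3.99-fold in LM1 and 5.48-fold in LM9 (log2 -2.00, SE 0.16, and -2.45, SE 0.16, limma-voom adjusted p = 3.06e-07 and 4.57e-08). Ntn4, a basement membrane netrin, rose from 1.81, 2.15 and 2.06 to 7.22, 6.09 and 5.23 CPM in LM1. LM9 had 2.90, 0.604 and 0.708 CPM and LM9 Nfib KO 5.89, 6.01 and 5.43 CPM, again without overlap. The rise in LM9 was 5.09-fold with all libraries and 8.60-fold without replicate 1. Neogenin (Neo1), a netrin receptor, fell from 232 ± 9.0 to 183 ± 2.81 CPM in LM1 and from 251 ± 26.6 to 188 ± 3.78 CPM in LM9, and Dcc was not analysed here. Unc5b, a receptor for repulsion by netrin-1, was at 162, 153 and 162 CPM in LM1 and 109.8, 104 and 113 CPM in LM1 Nfib KO. It was at 152, 199 and 216 CPM in LM9 and 108, 106 and 108 CPM in LM9 Nfib KO, a fall of 1.46-fold and 1.74-fold. Unc5b made up 98.9% or more of the UNC5 sum per kb in every group. Unc5c appeared at 3.12, 3.32 and 3.22 CPM in LM1 Nfib KO and 3.32, 4.01 and 3.59 CPM in LM9 Nfib KO. The LM1 libraries had 0, 3 and 0 counts, a ratio of 95.0 (95% exact counting interval 32.3 to 463), and the LM9 libraries had none, so that LM9 Nfib KO was at least 30.1-fold higher.

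In the Slit and Robo system both ligands rose, Robo2 rose and Robo1 fell. Robo1 (ENSMUSG00000022883, chr16:72308306-73046095, plus strand) was at 11.1, 12 and 14.0 CPM in LM1 and 11.2, 7.13 and 8.07 CPM in LM9. It was at 1.51, 2.09 and 1.72 CPM in LM1 Nfib KO and 2.00, 1.48 and 2.05 CPM in LM9 Nfib KO, below every parental library. The fall was 6.95-fold and 4.77-fold (log2 -2.80, SE 0.21, and -2.25, SE 0.22, limma-voom adjusted p = 2.11e-07 and 1.77e-06). Robo2 (ENSMUSG00000052516, chr16:73891839-74411825, minus strand), a neighbour of Robo1 on chromosome 16, had no count in LM1 and 0, 1 and 0 counts in the LM9 libraries. It was at 39.2, 40.8 and 37.5 CPM in LM1 Nfib KO and 36.0, 41.3 and 40.4 CPM in LM9 Nfib KO. The knockout-labelled libraries were thus the ones with a clear Robo2 signal, at least 361-fold higher in LM1, and in LM9 with a ratio of 3139 on summed counts, whose interval of 563 to 123994 rests on 1 parental count. Robo1 was the whole Robo sum in LM1, and per kb Robo2 was 95.6% in LM1 Nfib KO and 95.4% in LM9 Nfib KO. Slit1 had 0, 2 and 4 counts in LM1 and 3, 0 and 2 in LM9, and was at 5.36, 4.65 and 5.5 CPM in LM1 Nfib KO and 5.21, 5.11 and 5.12 CPM in LM9 Nfib KO. Its ratio was 76.3 (34.8 to 209) in LM1 and 82.2 (35.0 to 254) in LM9. Slit2 rose from 1.38, 1.5 and 1.66 to 7.5, 7.21 and 7.19 CPM in LM1 and from 0.911, 1.45 and 1.57 to 8.76, 7.10 and 8.03 CPM in LM9, 4.79-fold and 6.20-fold. Both ligands were higher in every knockout-labelled library than in any parental one.

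**Figure D3:**
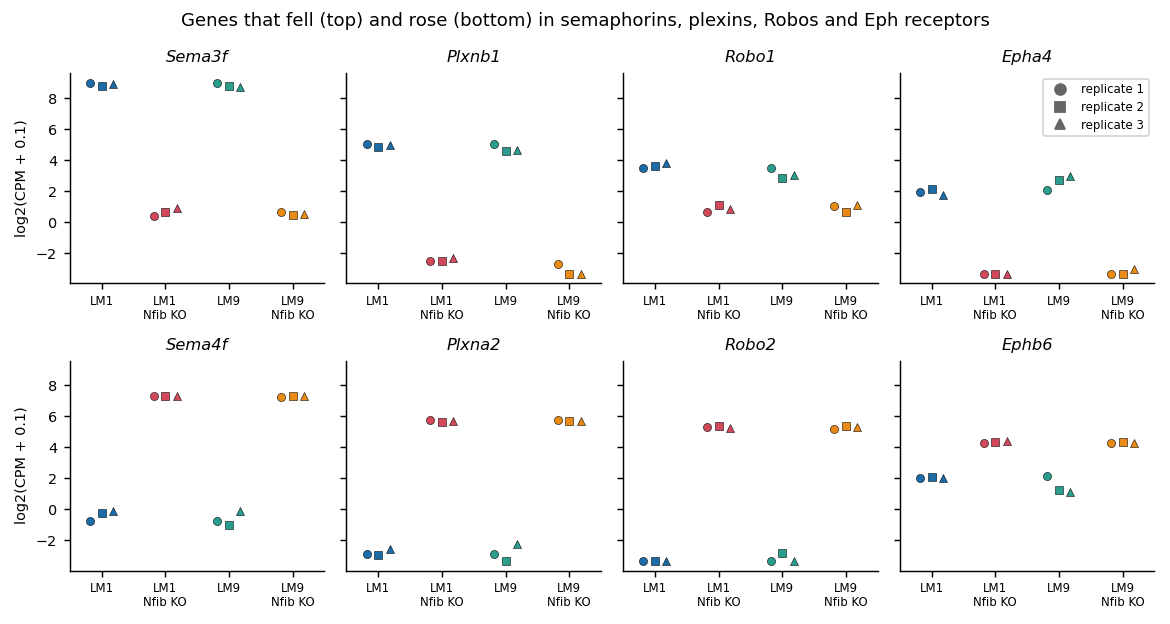
Each panel plots 1 gene as log2(CPM + 0.1) by library, with replicates 1 to 3 as circles, squares and triangles, for genes that fell in the top row and for genes of the same or a related family that rose in the bottom row. In every panel the 6 knockout-labelled libraries lie apart from the 6 parental ones, and Epha4 and Robo2 reach the bottom of the axis, which stands for no count, in LM1 Nfib KO and LM1.

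Genes that signal below the receptors moved in both directions. Srgap1, a GTPase-activating protein that binds the Robo tail and acts on CDC42, was at 0.177, 0.123 and 0.0361 CPM in LM1 and 96.9, 98.7 and 96.4 CPM in LM1 Nfib KO. In LM9 it was at 0.0675, 0.0403 and 0.0394 CPM and in LM9 Nfib KO at 97.8, 95.2 and 96.1 CPM. Its ratio on summed counts was 861 (468 to 1797) in LM1 and 1924 (751 to 7062) in LM9. Its relatives Srgap2 and Srgap3 fell in both lines, Srgap2 from 115 to 44.7 CPM in LM1 and from 128 to 45.5 CPM in LM9, and Srgap3 from 158 to 74.9 CPM and from 114 to 75.3 CPM. Across the list of signalling genes, 42 of 44 were tested, and 18 rose and 17 fell in both lines, beside 39.6% and 33.5% of all genes. Leaving out LM9 replicate 1 changed none of these list counts, nor those of co-receptors and further ligands. Arhgef11 (log2 -0.65 in LM1 and 0.48 in LM9) and Arhgef12 (-0.23 and 0.83) then passed the threshold with opposite signs. In the signalling list the largest fall was in Rras, the GTPase that plexins switch off, from 197 ± 7.17 to 11.2 ± 0.792 CPM in LM1 and from 250.3 ± 45.4 to 10.7 ± 0.993 CPM in LM9.

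Of 15 co-receptors and adhesion partners listed, 9 were tested, of which 6 rose and 2 fell in both lines, beside 39.6% and 33.5% of all genes. The largest rise was in Flrt2, a ligand of UNC5 receptors, which had no count in any parental library and was at 77.6 ± 2.36 and 79.4 ± 3.22 CPM in LM1 Nfib KO and LM9 Nfib KO, at least 715-fold and 657-fold higher. Flrt3 was at 31.2 and 6.32 CPM in LM1 and LM1 Nfib KO (log2 -2.31, limma-voom adjusted p = 0.000187), and at 30.3 CPM in LM9 replicate 1 and 8.14 and 7.44 CPM in LM9 replicates 2 and 3. Its log2 change in LM9 was -0.88 (adjusted p = 0.074) with all libraries and -0.18 (adjusted p = 0.162) without replicate 1. The largest fall among those called in both lines was in Nrp2. Of 10 further guidance ligands 4 were tested, of which Slitrk6, a synaptic adhesion protein, rose and Rgma and Rgmb, ligands of neogenin, fell in both lines, 1 and 2 of 4 against the same shares of all genes. Slitrk6 had no count in any parental library and was at 1.87 ± 0.359 CPM in LM1 Nfib KO and 1.58 ± 0.128 CPM in LM9 Nfib KO. Rgma was at 59.8 ± 5.27 and 19.3 ± 0.637 CPM in LM1 and LM1 Nfib KO and at 40.8 ± 17.3 and 17.8 ± 0.780 CPM in LM9 and LM9 Nfib KO.

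Ligands were then set beside their receptors. Of 43 textbook pairs, 32 had both partners measured. Both partners fell in 8 pairs, among them Sema3f with Nrp2 and Plxna3, Sema4d with Plxnb1, and Ntn1 with Unc5b and Neo1. Both rose in 4 pairs, which were Sema3c with Nrp1, Sema7a with Plxnc1, and Slit1 and Slit2 with Robo2. In 5 pairs the ligand fell and the receptor rose, as for Sema6a with Plxna2 and Plxna4, and in 7 the ligand rose and the receptor fell, as for Efnb1 with Ephb2 and Ephb3. In the other 8 pairs at least 1 partner was not called in both lines. Beside these counts, 39.6% of all genes rose and 33.5% fell in both lines. Without LM9 replicate 1 the counts were again 8, 4, 5, 7 and 8, with Efna1 and Epha2 in place of Efnb3 and Epha4 among the pairs that fell, and Efnb2 and Ephb4 were each called with opposite signs in the lines. Pairs share partners, so these counts are not independent.

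**Figure D4:**
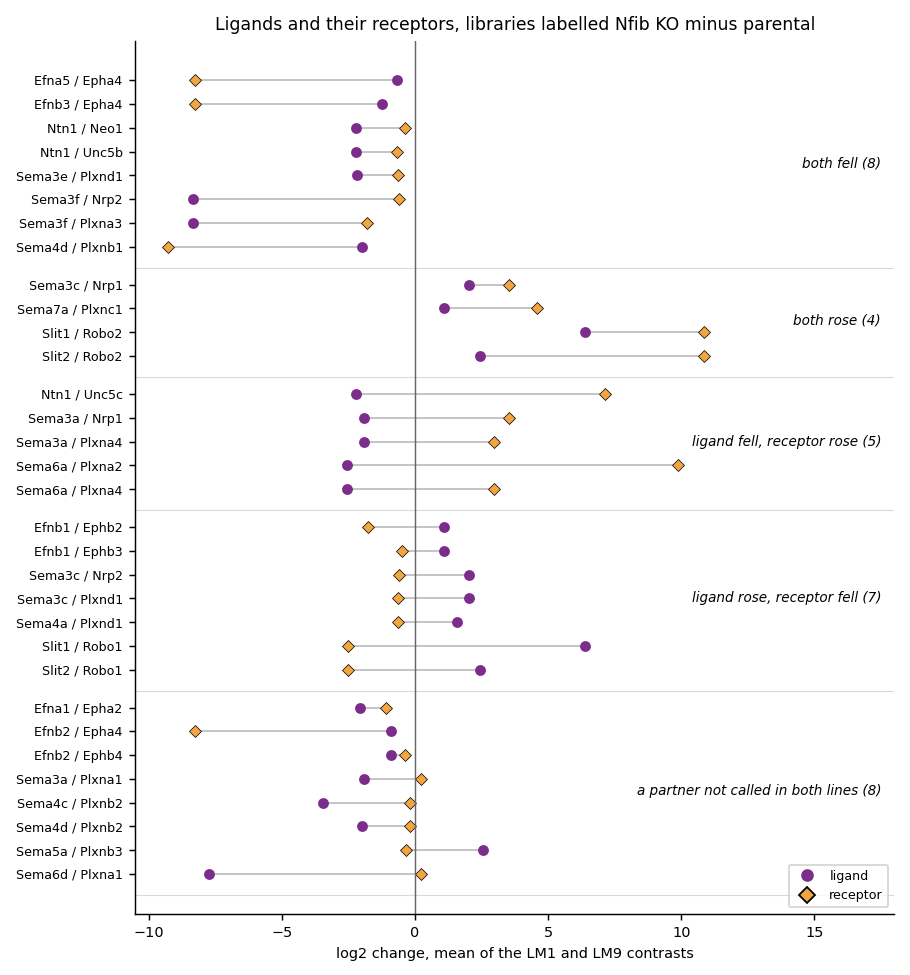
Each row joins a ligand (circle) to its receptor (diamond) at the mean of their log2 changes in LM1 and LM9, with rows grouped by the calls of both partners. Rows of the first 2 groups lie on 1 side of 0 (8 pairs to the left and 4 to the right), and the next 2 groups, of 5 and 7 pairs, cross it.

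The parental lines were compared next. With all libraries, no guidance gene was called between LM1 and LM9 (0 of 50 by limma-voom, beside 0.0055% of all genes), although 27 had an unadjusted p under 0.05, as did 47.7% of all genes, and the lowest adjusted p was 0.0543, with 19 genes under 0.06. The edgeR quasi-likelihood test called 0 and DESeq2 called 14, 5 higher and 9 lower in LM1, beside 31.8% of all genes. Scaling to total counts gave 13 higher and 3 lower, beside 28.8% of all genes, so the balance of directions turned with the setting. In limma-voom without LM9 replicate 1, 24 genes were higher and 14 lower in LM1 than in LM9, beside 33.4% and 32.4% of all genes. Sema6d was higher in LM1 by a log2 of 2.54 (SE 0.12) and Epha8 lower (log2 -2.45, SE 0.34). Plxnc1 had no count in LM9 replicates 2 and 3, and the LM1 mean was at least 2.20-fold above the floor there. All 4 EphA receptors were higher in LM9 replicates 2 and 3 than in LM1, led in level by Epha2 (log2 -1.73, SE 0.05, limma-voom adjusted p = 1.20e-14). Ephb2, Ephb4 and Ephb6 were lower there, as were Efnb2 (log2 1.74, SE 0.06), Sema6a (1.31) and Sema6b (1.64).

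**Figure D5:**
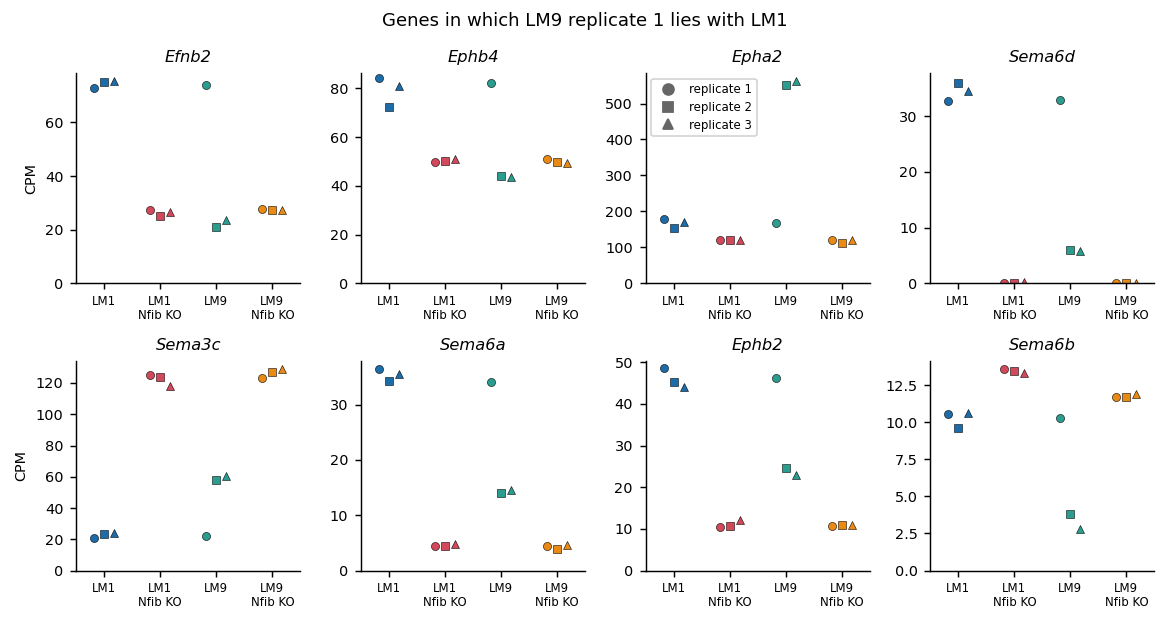
Each panel plots the CPM of 1 gene by library on a linear axis from 0, with replicates 1 to 3 as circles, squares and triangles. In each of the 8 genes LM9 replicate 1 (circle) lies with the LM1 libraries, as for Epha2 at 168 CPM, while LM9 replicates 2 and 3 lie apart, there at 553 and 562 CPM.

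The change with the knockout label was also compared between the lines. The interaction, LM1 Nfib KO minus LM1 less LM9 Nfib KO minus LM9, called 0 of the 50 genes with all libraries (limma-voom, beside 0.0% of all genes), with 8 at an unadjusted p under 0.05 (24.7% of all genes) and a lowest adjusted p of 0.202, and edgeR and DESeq2 also called 0. Without LM9 replicate 1 it called 31, beside 57.2% of all genes. Efnb2 (-1.80, SE 0.08, adjusted p = 1.03e-11) and Ephb4 (-0.83, SE 0.08, adjusted p = 7.60e-08) were negative, and Epha2 was positive (1.77, SE 0.06). Between the knockout-labelled groups themselves 0 of the 50 genes were called (limma-voom, beside 0.0% of all genes), 1 had an unadjusted p under 0.05 (0.979% of all genes), and edgeR and DESeq2 called 0. The interaction and the difference between parental lines share the parental libraries, so they are not separate evidence.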

How the data were processed

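RNA of tumourspheres from 12 libraries (3 for each of the parental lines LM1 and LM9 and for each Nfib KO pool) was sequenced after TruSeq stranded mRNA preparation. The authors aligned single-end reads to the mouse genome (mm10) with STAR and deposited raw counts per gene, made by counting reads whose 5′ end overlapped an exon of the gene with QuasR. Versions, annotation release, the handling of multiply mapped reads and the strand setting are not given in the sources used here. Of 18278 gene identifiers, 18268 matched GENCODE M21, which gave symbols, coordinates and exon lengths. Library totals were 29249075 to 37162594 counts.

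Counts were filtered with filterByExpr (count minimum 10, total minimum 15), scaled by TMM (trimmed mean of M values) and fitted with limma-voom 3.58.1 in R 4.3.3, with 1 mean per group, all 12 libraries in 1 fit and Benjamini-Hochberg adjustment over 18176 genes. A gene was called at an adjusted p under 0.05. The labels number the libraries without saying whether they came from separate cultures, so p-values measure the spread between these libraries, which may be technical. Replicate numbers did not pair the libraries (correlation of same-numbered deviations -0.0587 to 0.0250), so no block entered the model. In counts simulated at a dispersion of 0.01 on 17592 genes, the average of the knockout contrasts recovered 200 of 200 genes changed by 1 on the log2 scale, with 9 false calls, and on 17630 genes the interaction recovered 189 of 200, with 5 false calls. Alternatives were edgeR 4.0.16 (quasi-likelihood test), DESeq2 1.42.0, other scalings, filters, weights and thresholds, a replicate block, fits of only the groups compared and leaving out each library. Ratios against a summed count of up to 40 in a group were taken on the counts, with exact 95% intervals, where such a ratio is printed.

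The genes, pathway lists, pairs and markers were chosen with earlier results of these data known. Values in every library were given for the most abundant gene of each class per kb, the largest rise and fall of each class averaged over both lines among genes with a mean of at least 1 CPM in a group, and the 3 largest differences between LM1 and LM9 without LM9 replicate 1. Nfib, the neuropilins, Neo1 and the largest rise and fall in each pathway list were added. Genes named beyond this rule, among them Sema3c, Srgap2 and Srgap3, were chosen after their values were seen. Sequences came from RefSeq promoter windows, and no protein sequence was used.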

Additional observations from a re-analysis of the deposited data

Results flagged for a closer look

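Ephb4 and its ligand Efnb2 changed differently in the lines when LM9 replicate 1 was left out. The interaction (LM1 Nfib KO minus LM1, less LM9 Nfib KO minus LM9) was -0.83 for Ephb4 (limma-voom adjusted p = 7.60e-08) and -1.80 for Efnb2 (adjusted p = 1.03e-11) on the log2 scale. Every LM1 Nfib KO library lay below every LM1 library, and every LM9 Nfib KO library lay above LM9 replicates 2 and 3, for both genes. With LM9 replicate 1 included, the interaction was not called for either gene, and this library stood at the LM1 level. These values rest on 2 LM9 libraries.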

How the results depend on the processing

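The counts of called guidance genes stayed within 1.5 times the main count in LM1 (44 of 50, beside 81.2% of all genes) and LM9 (47, beside 82.3%) under each alternative, and leaving out single libraries gave 44 to 46 and 42 to 47. For LM1 minus LM9, 0 genes were called in the fit of all libraries, 14 by DESeq2 (beside 31.8% of all genes), 16 with total counts (28.8%), 16 of the 35 genes with a mean of at least 5 CPM (39.5%), 38 with sample quality weights (63.8%) and 0 to 38 when 1 library was left out, where 38 was without LM9 replicate 1 (65.7%). For the interaction the 0 calls became 30 with sample quality weights (beside 58.1% of all genes) and 0 to 31 when 1 library was left out. Between the knockout-labelled groups every setting gave 0. With total counts 19 genes were higher and 23 lower in LM9, against 19 and 28 in the fit of all libraries with TMM. Total counts moved the median log2 change of all genes from 0.08 to 0.31 in LM1 and from 0.13 to 0.49 in LM9. Directions reversed in small changes: with total counts in LM1 for Plxnb2 (0.19, limma-voom adjusted p = 0.0201), Plxnb3 (0.084) and Efna2 (0.14), and in LM9 for Plxnb2 (6.15e-05), Ephb4 (0.24) and Efnb2 (0.072). With quality weights they reversed in LM1 for Plxna1 (-0.043) and Plxnb3 (0.11), and in LM9 for Ephb4 (0.17, adjusted p = 0.0158) and Efnb2 (0.26, adjusted p = 0.00925). Leaving out single libraries moved Ephb4 in LM9 over -0.27 to 0.19 and Efnb2 over -0.62 to 0.30, positive without LM9 replicate 1, and in LM1 Plxna1 over -0.047 to 0.090, negative without LM1 replicate 2, and Plxnb3 over -0.39 to 0.23, positive without LM1 replicate 2 or LM1KO replicate 3 (0.18). The cause was not tested. Of the values of single genes in LM1 and LM9, 40 lost their call, of Sema4b, Ephb3 and Efna5 in LM9 and Ephb4 in LM1 only with total counts, and of Sema7a, Plxna1, Epha8, Efna2 and Efnb3 in LM9 under several settings, and 6, of Epha2 and Sema6b in LM1, gained one.

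The replicate block called 44 genes in LM1 (80.3% of all genes) and 45 in LM9 (81.6%), where Epha8 (adjusted p = 0.0715) and Efnb3 (adjusted p = 0.0625) lost their call. It called 0 in the interaction, between the parental lines and between the knockout-labelled groups. At this depth, levels at or under 3 counts could not be told from no expression.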
